A study of Mus musculus with 3 samples.

Results

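The 82 genes described here encode the proteins of the cytosolic ribosome. They were chosen by symbol alone, as Rpl and Rps genes with a number, together with Rplp0, Rplp1, Rplp2, Rpsa and Fau. After the number only 1 letter of a, x or l and further digits were allowed, so numbered symbols with other endings are not members. The members are 82 of the 32285 genes counted in the series. Genes of the Rps6k kinase family and symbols marked as pseudogenes were left out. By symbol, 49 members belong to the large subunit and 33, Fau included, to the small subunit. The data are single-cell RNA counts from adult mouse testis, made with the 10x Genomics 3′ v3.1 chemistry, in which each captured messenger RNA is counted once through a unique molecular identifier (UMI). Wildtype replicates 1 and 2 each hold cells of 1 mouse. The knockout library mixes cells of 2 mice carrying a conditional Tex10 knockout, and its cells cannot be assigned to a mouse. Every mouse bears the strain label C57BL/6N, no drug or other agent is named, and the labels do not name the Cre line or the exons removed, so the cells in which Tex10 was deleted are not known from them.

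A ribosome reads messenger RNA in its small subunit and joins amino acids in its large subunit. Both subunits are built in the nucleolus from ribosomal RNA and from proteins that are needed in matching amounts. Mammalian ribosomal protein messages commonly start with a C followed by a run of C and T, the 5′ terminal oligopyrimidine (TOP) motif, through which their translation is controlled as a group. In the testis, spermatogonia divide by mitosis, spermatocytes pass through meiosis, and spermatids are reshaped into sperm while transcription comes to a stop. During meiosis the X chromosome is silenced in the sex body, and several X-linked housekeeping genes have autosomal copies that are active in germ cells.

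The libraries held 9967 to 12918 barcodes and 93418341 to 147783171 UMIs, and 27 to 30 barcode sequences were shared by each pair of libraries. After filtering, 7519, 7704 and 11084 barcodes remained. Values given in threes are for wildtype 1, wildtype 2 and the knockout, in that order. Of these, 55.1%, 40.1% and 64.3% lay in clusters of few UMIs and were kept out of the classes. Clusters were built without any ribosomal protein gene and named from marker genes, so a class such as spermatogonia stands for spermatogonia-like cells. The germ cells named numbered 3226, 4439 and 3709. Among somatic cells, the peritubular myoid class held 94 to 96 cells per library, whereas the Sertoli class held 14 to 51 and the Leydig class 0 to 49. Tex10, the targeted gene, was detected in the knockout library at 131 CPM (the count scaled to a fixed total of UMIs per class and library) in spermatogonia against 142 and 125 in the wildtype libraries. It stood at 19.9 against 33.6 and 31.7 CPM in round spermatids. A 3′ count need not cover the deleted part of a gene, so these levels do not check the genotype labels.

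Ribosomal protein genes held the largest share of UMIs in spermatogonia, at 16.0%, 15.5% and 15.1% of all UMIs. The share was 9.91%, 10.0% and 9.02% in early spermatocytes and 7.68%, 7.89% and 6.94% in late spermatocytes. It was 4.84%, 4.89% and 4.01% in round spermatids and 3.83%, 3.95% and 3.49% in elongating spermatids. The libraries of neighbouring classes did not overlap at any of the 4 steps, and the order was the same in 3 of 3 libraries. From spermatogonia to elongating spermatids the share fell 4.17-fold, 3.92-fold and 4.32-fold in the 3 libraries. With 3 paired libraries no exact test can reach 0.05, so the steps are given by their direction and not by a p.

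Part of this order depended on what the share was taken of. Elongating spermatids spend much of their RNA on a few genes, such as the protamine gene Prm1, which alone held 94283 to 103048 CPM. When the 50 most abundant other genes of each class were taken out of the denominator, the mean share over libraries was 17.6%, 11.1%, 8.88%, 5.42% and 6.74% from spermatogonia to elongating spermatids. On that base the share was higher in elongating than in round spermatids, which is the reverse of the order over all UMIs. The fall from spermatogonia to round spermatids had the same direction on both of these bases. On a base without the 50 most abundant genes of each class, members included, the mean share was 6.10% in spermatogonia and 7.03% in early spermatocytes, so the first step turned over there.

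Finer clusters gave a smooth course within the classes. Across the 11 germ cell clusters, set in order of stage markers, the share went from 16.0%, 15.5% and 15.1% in the first cluster to a low of 3.35%, 3.52% and 3.04% in the last cluster of round spermatids. The elongating spermatid clusters then ranged from 3.67% to 4.12% in wildtype replicate 1, from 3.81% to 4.23% in wildtype replicate 2 and from 3.21% to 3.63% in the knockout library.

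**Figure D1:**
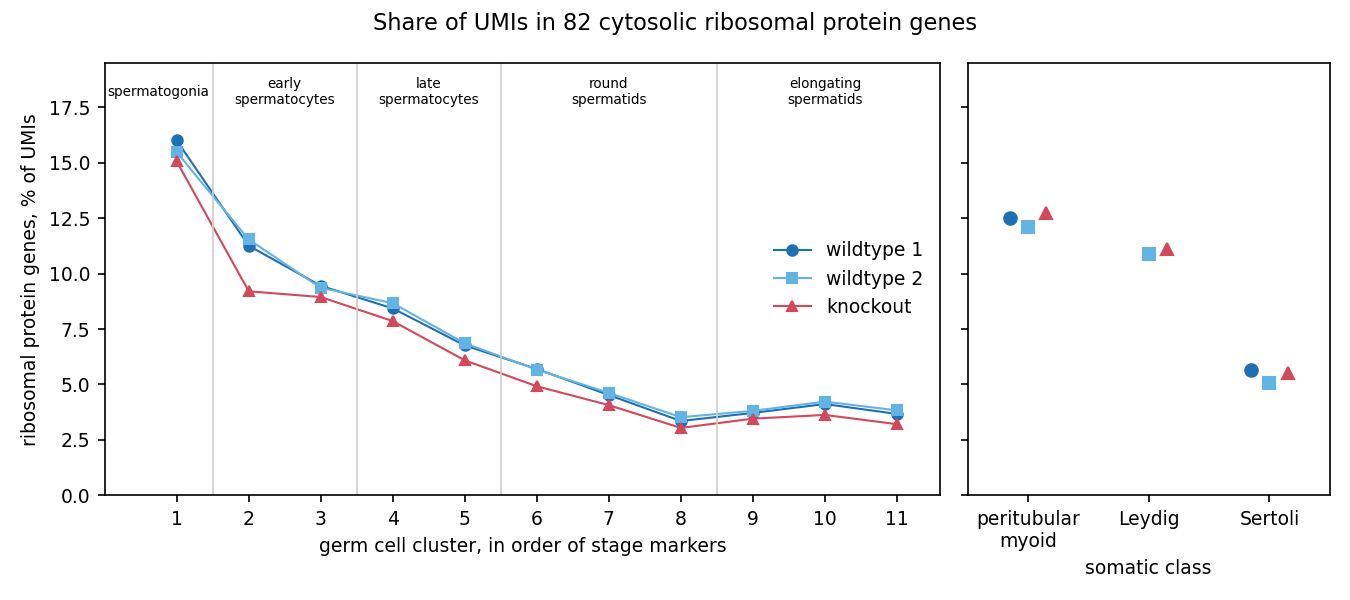
Share of all UMIs held by the 82 ribosomal protein genes, in percent, for 11 germ cell clusters in order of stage markers (left) and 3 somatic classes (right), with 1 point per library. The share fell from 15.1% to 16.0% in spermatogonia to 3.49% to 3.95% over elongating spermatids, and peritubular myoid cells sat between 12.1% and 12.7%.

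Somatic classes differed among themselves. Peritubular myoid cells, the contractile cells around the seminiferous tubule, gave ribosomal protein genes 12.5%, 12.1% and 12.7% of UMIs. Sertoli cells, which nurse the germ cells, gave 5.65%, 5.06% and 5.52%, and their exact 95% binomial interval in wildtype replicate 2, with 14 cells, ran from 4.97% to 5.15%. Leydig cells, the source of testosterone, gave 10.9% in wildtype replicate 2 and 11.1% in the knockout library. The Leydig class held 0 cells of wildtype replicate 1 once the top 8% of doublet scores were left out. With those barcodes kept, it held 25 cells of that library, so the empty class depends on this filter. Binomial intervals cover counting error only and not differences between cells or mice. Sertoli cells therefore lay below early and late spermatocytes in all 3 libraries, and peritubular myoid cells lay between spermatogonia and early spermatocytes in all 3.

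The balance of the subunits moved little while the total fell. Small subunit genes held 46.0% to 46.5% of the ribosomal protein UMIs in spermatogonia, 41.5% in each library of late spermatocytes, and 44.6% to 45.2% in elongating spermatids. Mitochondrial ribosomal protein genes, which encode the separate ribosome inside mitochondria, held 1.00% to 1.08% of all UMIs in spermatogonia and 0.188% to 0.194% in elongating spermatids.

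Levels of single members spread widely around the common course. In spermatogonia the median member stood at 1748 CPM over libraries and 62 of 82 members were at 1000 CPM or more. In elongating spermatids the median member stood at 282 CPM and 8 members were at 1000 CPM or more. A UMI counts a molecule at its 3′ end, so CPM values of different genes need no scaling by length, but how well each message is captured was not measured. Among the leading genes of spermatogonia were Rpl13 at 4993 ± 306 CPM (SD, n = 3 libraries), Rpl32 at 4581 ± 312 and Rps24 at 4356 ± 359. In elongating spermatids the leading pair was Rps20 at 3803 ± 145 CPM and Rpl41, which encodes the smallest ribosomal protein, at 2679 ± 149. Members made up 36 of the 50 most abundant genes in spermatogonia, 16 among those of early and 6 of late spermatocytes, and 2 in each spermatid class.

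Stage contrasts were tested with edgeR's quasi-likelihood test on UMI sums per library and class, with the library as a block and Benjamini-Hochberg adjustment over 18964 genes. All 82 members entered the test. TMM scaling, which takes a trimmed mean of the gene ratios between libraries, gave 10 members higher and 52 lower in early spermatocytes than in spermatogonia, beside 32.2% of all genes higher and 26.4% lower. It gave 19 higher and 37 lower in late against early spermatocytes, beside 27.1% and 46.8% of all genes. It gave 3 higher and 64 lower in round spermatids against late spermatocytes, beside 41.0% and 40.6%. It gave 64 higher and 13 lower in elongating against round spermatids, beside 31.1% and 36.2%. Across the ends of the series, elongating spermatids against spermatogonia, 34 members were higher and 38 lower, beside 43.1% and 43.5% of all genes.

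Scaling by UMI totals changed several of these splits. On totals the members higher and lower were 4 and 71 at the first step, beside 24.4% and 33.0% of all genes, and 7 and 60 at the second, beside 23.0% and 53.1%. They were 1 and 77 at the third step, beside 38.0% and 44.7%, and 15 and 53 at the fourth, beside 9.95% and 68.7%. Across the ends they were 1 and 80, beside 21.0% and 61.8%. The 1 member higher on totals across the ends was Rps20. The direction of the ribosomal protein genes from round to elongating spermatids was thus opposite under TMM and under totals. Between early and late spermatocytes the split under TMM also turned over when a library or the filter was changed, as given in the closing section, so no direction is assigned to the members at that step.

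The members can also be set against the median of all genes tested. A library scaling shifts every gene alike, so this difference is nearly the same under both scalings by construction, and it is a description with no test. The median log2 change of all genes tested was 0.18, -0.62, -0.01 and -0.12 at the 4 steps under TMM and -0.12, -0.88, -0.24 and -1.72 under totals. Set against that median, the median member lay at -0.51 under TMM and -0.52 under totals in early spermatocytes against spermatogonia. It lay at 0.53 under both in late against early spermatocytes and at -0.57 and -0.58 in round spermatids against late spermatocytes. It lay at 1.28 and 1.21 in elongating against round spermatids. Across the ends it lay at -0.10 and -0.15.

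Other lists of the translation machinery were counted in the same fit across the ends, and no difference between lists was tested. All genes gave 43.1% higher and 43.5% lower under TMM, and 61.8% lower on totals. Ribosome assembly factors such as Npm1, Ncl and Fbl, which act in the nucleolus, were lower in 23 of 24 genes and higher in 1 under TMM, with a median log2 change of -3.27. Mitochondrial ribosomal protein genes were lower in 54 and higher in 16 of 78, with a median of -1.44. Other messages known to carry the TOP motif, such as Eef1a1 and Tpt1, were higher in 11 and lower in 9 of 20, with a median of 1.17. Initiation factors were higher in 12 and lower in 11 of 24, with a median of 0.04. On totals the counts lower were 24 of 24, 74 of 78, 16 of 20 and 20 of 24 in the same order, beside 80 of 82 ribosomal protein genes.

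The starts of the members are shown because the TOP motif and certain promoter elements have been described for the family, although most members lack each of them in the table used. Of the 82 members, 62 had a start in the RefSeq table of build GRCm38.p6. In these 30-base windows the letter at the start and the C and T run that follows it, where the run makes a TOP motif, are in capitals, and otherwise the start base alone is in capitals.
Fau, chr19:6057937-6057966, plus strand: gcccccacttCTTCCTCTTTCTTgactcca
Rpl14, chr9:120571507-120571536, plus strand: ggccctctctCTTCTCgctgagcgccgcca
Rps27, chr3:90213629-90213658, minus strand: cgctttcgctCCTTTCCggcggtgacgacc
Rpl39, chrX:37085203-37085232, minus strand: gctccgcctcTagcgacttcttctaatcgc
Rpl39l, chr16:10170218-10170247, plus strand: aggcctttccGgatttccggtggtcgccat
Fau, Rpl14 and Rps27 begin with the motif at the annotated start, whereas Rpl39 and Rpl39l do not. A C at the start followed by at least 4 C or T was present in 14 of 62 members (22.6%) and in 2.96% of 26963 other genes of the table. Annotated starts can lie some bases from the used one, so these shares count letters in the table and not messages in the cell.

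Promoter elements were counted in the 250 bases before each start, on both strands. The ETS element CCGGAA was present in 25 of 62 members (40.3%) and 13.5% of other genes. The YY1 element AAGATGGC was present in 4 members (6.45%) and 1.82% of other genes, and the cyclic AMP response element TGACGTCA in 6 members (9.68%) and 1.75%. The E-box CACGTG was present in 5 members (8.06%) and 6.86% of other genes.

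The 3 members on the X chromosome left the common course together. Rpl39, a small protein that lines the exit tunnel of the large subunit, lies at chrX:37082520-37085402 on the minus strand (GRCm38). It stood at 312, 341 and 215 CPM in spermatogonia and 174, 210 and 136 CPM in early spermatocytes. In late spermatocytes it stood at 1.39, 2.40 and 2.91 CPM. The classes on either side of this step did not overlap, and the log2 change was -5.94 ± 0.18 (SE) under TMM with an adjusted p of 8.106e-19 by edgeR's quasi-likelihood test with Benjamini-Hochberg adjustment. On UMI totals the log2 change was -6.20.

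Rpl36a, a large subunit protein near the site where transfer RNA leaves, lies at chrX:134585654-134588062 on the plus strand. It stood at 568, 555 and 512 CPM in spermatogonia, 76.6, 111 and 71.3 CPM in early spermatocytes, and 0.67, 1.69 and 1.40 CPM in late spermatocytes. Summed over the clusters of the class, it was therefore already low in every library of early spermatocytes. The levels of Rpl36a in the single clusters are not given here. From early to late spermatocytes it fell again by 5.81 on the log2 scale (SE 0.18) with an adjusted p of 8.818e-19 by edgeR. Rps4x, a small subunit protein, lies at chrX:102184941-102189394 on the minus strand. Its levels were 66.9, 63.3 and 67.1 CPM in spermatogonia, 14.1, 18.03 and 11.3 CPM in early spermatocytes and 1.19, 0.85 and 1.99 CPM in late spermatocytes. Rps4x thus began far below the median member in spermatogonia, while in peritubular myoid cells it stood at 2098, 2070 and 2243 CPM.

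None of these genes came back in round spermatids, unlike most X-linked genes. Of 686 X-linked genes tested, 609 were lower in late than in early spermatocytes, with a median log2 change of -3.78, and 475 were higher in round spermatids than in late spermatocytes, with a median of 3.42. At that second step the log2 change was -0.36 for Rpl39 (edgeR adjusted p = 0.1563), -0.84 for Rpl36a (0.01029) and -0.38 for Rps4x (0.2035). Round spermatid levels were 1.40, 1.94 and 1.26 CPM for Rpl39, 0.39, 0.59 and 0.73 CPM for Rpl36a and 0.70, 1.06 and 0.94 CPM for Rps4x. In elongating spermatids Rpl39 stood at 3.55, 3.24 and 3.31 CPM, above its round spermatid level in 3 of 3 libraries, but these values rest on 60 to 97 UMIs per library.

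Such low levels can be set beside RNA that leaks between cells. In late spermatocytes Rpl39 was at 0.107%, 0.187% and 0.283% of its level in peritubular myoid cells of the same library. Prm1, a spermatid gene, was at 0.611%, 0.921% and 0.978% of its elongating spermatid level in the same late spermatocytes, and Acta2, a myoid marker, was at 0.0443%, 0.0083% and 0.0267% of its myoid level there. Rpl39 in late spermatocytes thus lay below Prm1 and above Acta2 on this measure in every library. The part of free RNA in these values was not tested.

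**Figure D2:**
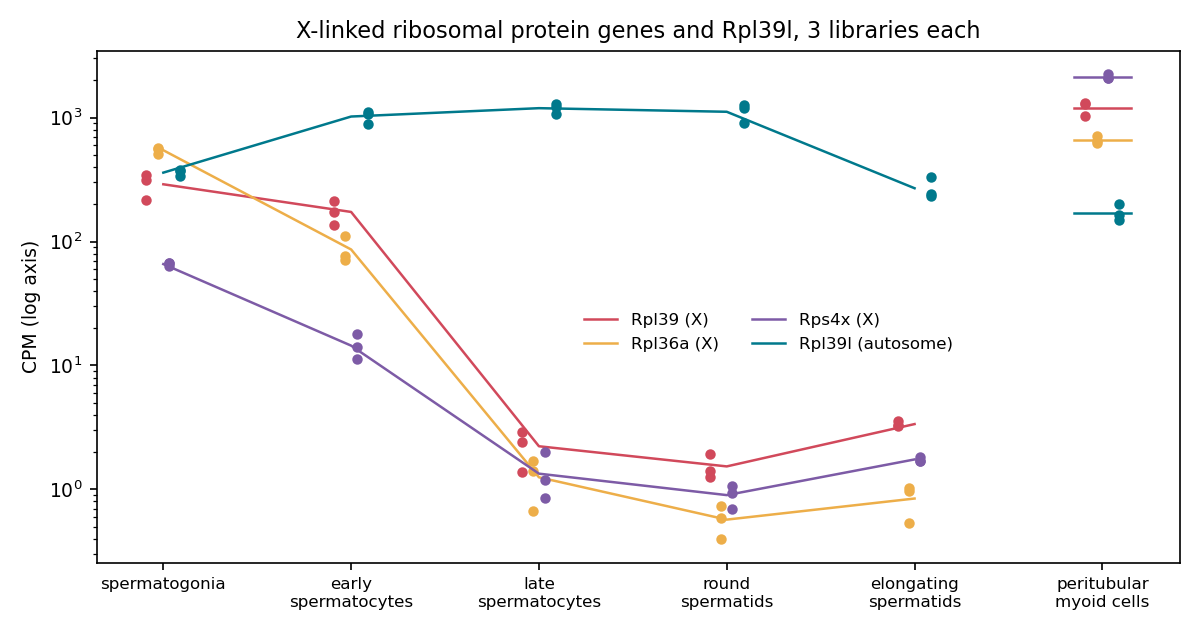
Level of the 3 X-linked ribosomal protein genes and of the autosomal Rpl39l in CPM on a log axis, with 1 point per library and lines through class means. Rpl39, Rpl36a and Rps4x were under 3 CPM in late spermatocytes, while Rpl39l stood between 1068 and 1278 CPM.

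Rpl39l, an autosomal copy of Rpl39 that is known as a germ cell form, moved the other way. It lies at chr16:10170226-10174911 on the plus strand. It stood at 368, 376 and 335 CPM in spermatogonia, 1102, 1072 and 882 CPM in early spermatocytes and 1224, 1278 and 1068 CPM in late spermatocytes. Every early spermatocyte library was above every spermatogonia library, with a log2 change of 1.81 ± 0.09 under TMM (edgeR adjusted p = 1.69e-14) and 1.498 on UMI totals. It stayed at 1184, 1254 and 901 CPM in round spermatids and was at 242, 333 and 232 CPM in elongating spermatids.

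The coding sequences of the pair are shown because the change from one gene to the other is the clearest swap in the family, and because they show how alike the copies are. They were read from the reference transcripts of GRCm38, and bases that differ are in capitals.
Rpl39: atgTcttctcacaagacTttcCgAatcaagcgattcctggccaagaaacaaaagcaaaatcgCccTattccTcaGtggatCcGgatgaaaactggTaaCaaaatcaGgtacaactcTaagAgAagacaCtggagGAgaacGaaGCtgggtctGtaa
Rpl39l: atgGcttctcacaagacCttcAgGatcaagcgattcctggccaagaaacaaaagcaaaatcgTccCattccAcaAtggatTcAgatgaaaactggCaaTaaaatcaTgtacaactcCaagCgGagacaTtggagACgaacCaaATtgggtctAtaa
Each is 156 bases long, and they differ at 23 bases, which makes them 85.3% identical. The differences fall in 21 codons, of which 18 encode the same amino acid in both genes. The 3′ end of a gene was taken as the last 500 bases of each of its annotated transcripts. Of all 31-base words in these ends, 9.93% of those of Rpl39 and 2.26% of those of Rpl39l also occur in another annotated gene. In another counted gene the shares were 0.625% and 1.07%.

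As a share of the pair, Rpl39l made up 54.1%, 52.4% and 60.9% of UMIs in spermatogonia and 86.4%, 83.6% and 86.7% in early spermatocytes. It made up 99.9%, 99.8% and 99.7% in late spermatocytes and remained at 98.6% or more in both spermatid classes. In peritubular myoid cells it made up 11.1%, 13.4% and 12.6%. The swap fell between the clusters of early spermatocytes. In the earlier cluster Rpl39 was at 591, 622 and 395 CPM and Rpl39l at 347, 370 and 328 CPM. In the later cluster Rpl39 was at 32.0, 34.4 and 34.7 CPM and Rpl39l at 1358, 1372 and 1097 CPM. Rpl39 was thus higher in the first cluster of early spermatocytes than in spermatogonia in all 3 libraries, and low only in the second.

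The pair Rpl22 and Rpl22l1 showed a second exchange, later in the series. Rpl22 is a large subunit protein that binds RNA, and Rpl22l1 is its close copy. Rpl22 stood at 1682, 1669 and 1407 CPM in spermatogonia and 915, 1002 and 784 CPM in early spermatocytes. It then stood at 272, 318 and 223 CPM in late spermatocytes, a log2 change of -1.47 ± 0.09 with an adjusted p of 1.249e-13 by edgeR. Rpl22l1 stood at 414, 401 and 337 CPM in spermatogonia, 303, 312 and 257 CPM in early spermatocytes and 544, 531 and 469 CPM in late spermatocytes, a log2 change of 1.09 ± 0.08 at the last step with an adjusted p of 4.8e-12 by edgeR.

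The share of Rpl22l1 in that pair was 24.9%, 23.7% and 24.7% in early spermatocytes, 66.6%, 62.5% and 67.8% in late spermatocytes and 81.3%, 80.0% and 83.2% in round spermatids. In elongating spermatids it was back at 30.04%, 29.5% and 32.3%, and Rpl22l1 itself had gone from 570, 566 and 473 CPM in round spermatids to 74.9, 75.3 and 62.3 CPM. Its share was 51.4%, 51.3% and 43.2% of the pair in peritubular myoid cells. In the small Sertoli class it was 28.5%, 35.6% and 28.6%, where Rpl39l made up 32.8%, 27.0% and 43.7% of its own pair.

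None of the other copies held the larger part of its pair in germ cells after early spermatocytes. Rps27l, a small subunit copy known as a p53 target, made up 47.6%, 46.9% and 53.7% of the pair with Rps27 in spermatogonia and 53.9%, 52.1% and 61.9% in early spermatocytes. Late spermatocytes had 33.8%, 35.5% and 41.2%, round spermatids had 25.1%, 25.5% and 31.3%, and the share was 6.16%, 6.27% and 7.11% in elongating spermatids. The share of Rpl7l1, which has a role in ribosome assembly, went from 13.9%, 14.1% and 15.8% of its pair with Rpl7 in spermatogonia to 1.09%, 1.12% and 2.00% in elongating spermatids. Rpl3l, the muscle form of Rpl3, was at most 11.7 CPM in any germ cell class.

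**Figure D3:**
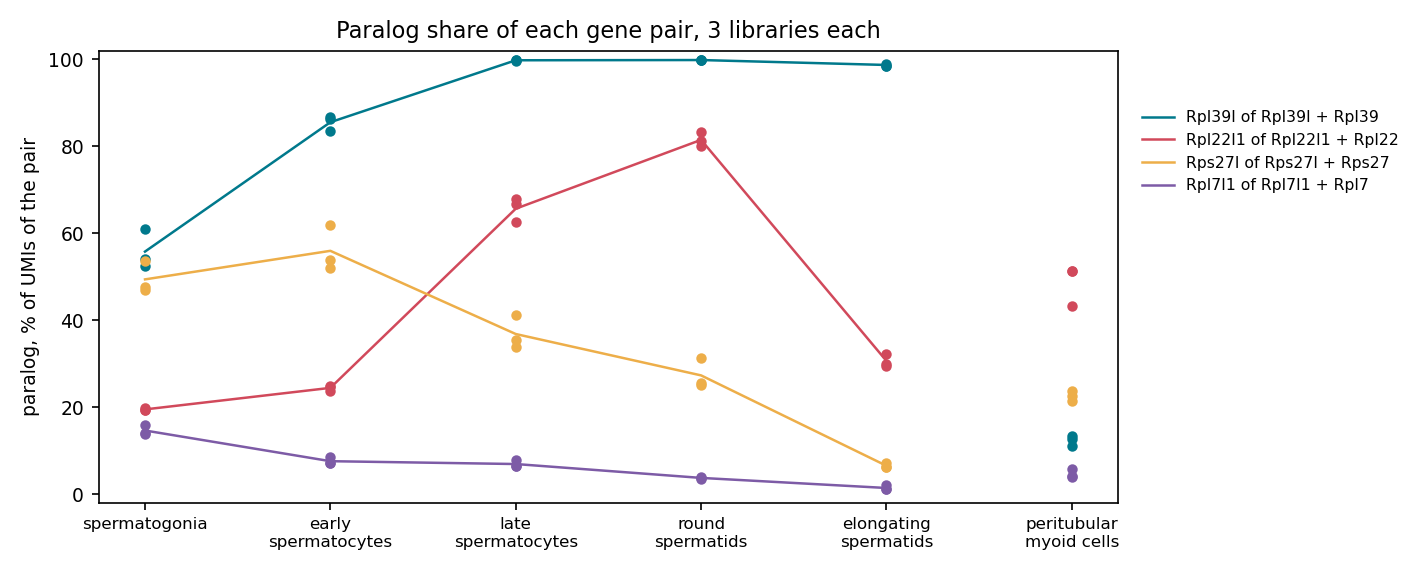
Share of the copy in the UMIs of each gene pair, in percent, by class, with 1 point per library and lines through germ cell means. Rpl39l reached 99.7% to 99.9% in late spermatocytes, Rpl22l1 peaked at 80.0% to 83.2% in round spermatids, and Rps27l and Rpl7l1 ended at 7.11% or less.

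A member was said to leave the common course where its log2 change between neighbouring classes was more than 1 away from that of the median member, with the same sign, in 3 of 3 libraries. By this rule 28 of 82 members left it at 1 or more steps. This rule describes size and is no test. At the first step 6 members left, among them Rpl39l above the median and Rpl36a, Rps4x, Rps2 and Rps3a1 below it. Rps2, a small subunit protein, went from 3099, 2946 and 3791 CPM in spermatogonia to 680, 724 and 857 CPM in early spermatocytes. Its libraries did not overlap between the classes, and the log2 change was -1.81 ± 0.09 with an adjusted p of 6.015e-15 by edgeR. At the second step 5 members left, namely the 3 X-linked genes and Rpl22 below the median and Rpl22l1 above it.

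The step from late spermatocytes to round spermatids brought the steepest losses among autosomal members. All 7 members that left there were below the median: Rpl14, Rpl10a, Rps27a, Rps3, Rpl9, Rpl4 and Rpl15. Rpl14, a large subunit protein, went from 322, 383 and 308 CPM to 18.3, 17.6 and 12.9 CPM, a log2 change of -4.15 ± 0.11 with an adjusted p of 1.351e-20 by edgeR. Rpl10a, which forms part of the stalk at the exit side of the large subunit, went from 336, 376 and 286 CPM to 22.2, 19.8 and 12.6 CPM, a log2 change of -3.97 ± 0.12 with an adjusted p of 1.46e-19 by edgeR. Neither gene overlapped between the classes in any library, and both had been over 1000 CPM in every library of spermatogonia.

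Rps27a encodes a fusion of ubiquitin with a small subunit protein. It went from 1752, 1723 and 1431 CPM in late spermatocytes to 188, 153 and 106 CPM in round spermatids, a log2 change of -3.24 ± 0.11 with an adjusted p of 1.715e-18 by edgeR. Fau encodes the other such fusion, of a ubiquitin-like protein with a small subunit protein, and it stood at 1383, 1430 and 1346 CPM and then at 1187, 1189 and 1033 CPM. The fusion genes thus parted at this step. Rps3, a small subunit protein at the entry of the messenger RNA that also acts in DNA repair, went from 491, 484 and 446 CPM to 78.1, 59.8 and 47.9 CPM, a log2 change of -2.72 ± 0.11 with an adjusted p of 1.209e-17 by edgeR.

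From round to elongating spermatids 19 members left the course, 3 above and 16 below the median. Rps20, a small subunit protein, went from 1913, 1938 and 1812 CPM to 3847, 3921 and 3641 CPM, and Rpl41 went from 1359, 1410 and 1327 CPM to 2624, 2847 and 2565 CPM. For both genes every elongating library was above every round one. The log2 change of Rps20 was 2.67 ± 0.07 under TMM (edgeR adjusted p = 3.84e-19) and 1.011 on UMI totals, and that of Rpl41 was 2.63 ± 0.08 (edgeR adjusted p = 4.6e-19) and 0.97. Rpl39 was the third above the median, at the low levels given before. Among those below were Rps27l, Rpl22l1, Rpl5, Rpl23a, Rpl27, Rpl35a, Rpl4, Rpl30, Rpl34, Rps21, Rpl39l, Rpl7l1, Rps27a, Rps14 and Rps3a1.

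Across the ends, elongating spermatids against spermatogonia, 36 of 82 members were more than 1 away from the median member in all 3 libraries, 15 above and 21 below. Taken as the mean over libraries, the farthest below were Rpl36a at -5.72, Rpl14 at -4.76, Rpl10a at -3.94, Rps27a at -3.91, Rps3 at -3.67 and Rpl39 at -3.54 on the log2 scale. The farthest above were Rps20 at 2.98, Rpl36 at 2.39, Rpl41 at 2.26, Rpl39l at 2.06, Fau at 1.95 and Rpl29 at 1.78. Rpl36 sits in the large subunit and stood at 1251, 1239 and 1050 CPM in spermatogonia and 1167, 1191 and 941 CPM in elongating spermatids. On UMI totals it thus stayed near its level, while the median log2 change of the members was -2.54. Under TMM that median was -0.06, so the loss of the median member depends on the scaling. Of the 3′-end words of Rpl36, 94.1% also occur in other annotated genes and 5.10% in a counted gene. The annotated transcript of Rpl36 has 383 bases, fewer than the 500 taken as a 3′ end, so these words include its coding part. How reads shared with those genes were counted was not tested.

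The proteins of the stalk, which recruits the translation factors, all ended below their spermatogonia levels on UMI totals, while under TMM the log2 change was 1.03 for Rplp0, 0.46 for Rplp1 and -1.02 for Rplp2. Rplp0, the base of the stalk, went from 2970, 2616 and 3283 CPM in spermatogonia to 1039, 961 and 1264 CPM in elongating spermatids. Rplp1 went from 2785, 3137 and 2837 CPM to 689, 786 and 689 CPM, and Rplp2, its partner in the stalk dimer, went from 2573, 2546 and 2505 CPM to 222, 241 and 214 CPM. Rpsa, which doubles as the laminin receptor, went from 2201, 1972 and 2209 CPM to 217, 208 and 188 CPM.

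**Figure D4:**
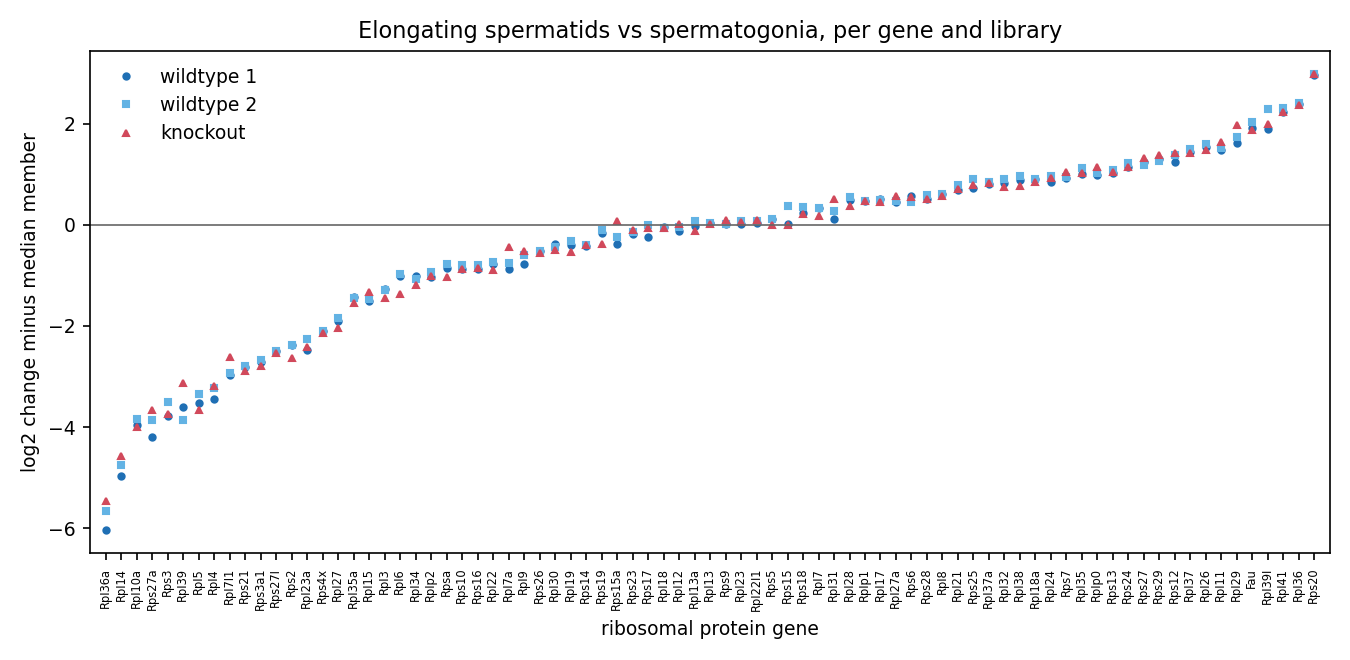
Log2 change of CPM + 1 from spermatogonia to elongating spermatids minus that of the median member, for ribosomal protein genes of at least 20 CPM in a germ cell class, with 1 point per library. The libraries fell close together for each gene, from Rpl36a at a mean of -5.72 to Rps20 at 2.98.

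The knockout library was then set against each wildtype library. With 1 knockout library there is no spread between knockout samples and no test, and differences of the library and of the genotype cannot be told apart. The ribosomal protein share was below both wildtype libraries in 5 of 5 germ cell classes. Against the wildtype mean the difference was -0.68 percentage points for spermatogonia, -0.94 and -0.84 for early and late spermatocytes, and -0.85 and -0.40 for round and elongating spermatids. It was 0.42 in peritubular myoid cells, where the knockout library was above both wildtype libraries, but with doublets kept it was -0.87, so the sign in that class turned over.

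Depth differed between the libraries as well. The median UMI total per cell was higher in the knockout library than in both wildtype libraries in each of these 6 classes, for example 38303 against 28195 and 22738 in round spermatids. In cells matched on their UMI total, the share was 16.1%, 15.7% and 14.95% in spermatogonia, 10.4%, 10.4% and 9.04% in early spermatocytes and 7.94%, 7.85% and 7.46% in late spermatocytes. It was 4.80%, 4.80% and 4.09% in round spermatids and 3.81%, 3.98% and 3.35% in elongating spermatids. The knockout share was below both wildtype shares in 5 of 5 germ cell classes after matching too, but the late spermatocyte difference shrank to -0.43 points, and within spermatogonia it was below both in 3 of 5 bins of UMI total.

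Most single members shared the shift, and it was small. In round spermatids 73 of 76 members that reached 20 CPM in a library were below both wildtype libraries, beside 53.3% of all genes so tested, with a median log2 ratio of -0.26 for members and -0.08 for all genes. The counts were 47 of 81 in spermatogonia (36.4% of all genes), 65 of 80 in early spermatocytes (31.4%), 65 of 78 in late spermatocytes (37.7%) and 52 of 73 in elongating spermatids (36.4%). In peritubular myoid cells the count was 21 of 81, beside 38.6% of all genes. The median log2 ratio of the members was -0.07, -0.14, -0.16 and -0.16 in the other germ cell classes in the order just given, and 0.03 in peritubular myoid cells.

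Members with a short annotated transcript were lower in the knockout library more often than members with a long one. Length was taken from 1 annotated transcript per gene, chosen by principal rank, then longest coding part, then shortest transcript. That transcript need not be the form present in these cells. For Rps20 it had 3706 bases, of which 357 are coding. Among members under 750 transcript bases, 32 of 43 were below both wildtype libraries in spermatogonia, 41 of 43 in early spermatocytes and 17 of 43 in peritubular myoid cells. Among those of 750 bases or more the counts were 15 of 38, 24 of 37 and 4 of 38. In late spermatocytes, round spermatids and elongating spermatids the short members gave 37 of 41, 40 of 41 and 30 of 40, and the long ones 28 of 37, 33 of 35 and 22 of 33. Across members without Rpl29, Pearson's r between the log2 ratio and log2 transcript length was 0.42 and 0.48 against wildtype replicates 1 and 2 in spermatogonia (80 members) and 0.37 and 0.41 in peritubular myoid cells (80 members). In round spermatids (75 members) it was 0.17 and 0.39, beside 0.29 between the wildtype libraries themselves. Across all genes it was 0.08 and -0.01 in spermatogonia and 0.03 and 0.05 in peritubular myoid cells. In early spermatocytes r was 0.49 and 0.51 for members and 0.15 and 0.14 for all genes, and in elongating spermatids it was 0.22 and 0.34 for members and 0.20 and 0.20 for all genes. In late spermatocytes it was 0.437 and 0.443 for members and -0.034 and -0.015 for all genes. Across all genes in round spermatids it was 0.07 and 0.05. These are descriptions across genes that share 3 libraries, and genes are not independent replicates. With only members of 750 bases or more, the spermatogonia difference was 0.013 percentage points, so the sign in that class turned over. All genes under 500 bases, members included, had a median log2 ratio of -0.12 in spermatogonia, -0.21 in round spermatids and -0.19 in peritubular myoid cells. The members under 500 bases alone had medians of -0.10, -0.36 and -0.01 in the same classes.

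Rpl29 was the single member past the size rule, and it was past it in all 6 classes compared. The rule asked for a 2-fold difference from each wildtype library, at least 2 times as large on the log2 scale as that between the wildtypes, with 20 CPM or more in a library. It called no member higher, beside 0.271%, 0.102%, 0.334%, 0.535%, 0.725% and 2.23% of all genes in the 6 classes from spermatogonia to peritubular myoid cells. Among all genes it called lower 0.0948%, 0.146%, 0.37%, 0.828%, 0.659% and 1.71% in the same order. Rpl29, a large subunit protein that mice can live without although they stay small, lies at chr9:106429454-106431568 on the plus strand (GRCm38). Its level was 1220 and 1188 CPM in the wildtype libraries and 115 CPM in the knockout library in spermatogonia. The values were 1009, 1005 and 94.4 CPM in early spermatocytes, 1119, 1175 and 119 CPM in late spermatocytes and 662, 658 and 69.6 CPM in round spermatids. They were 668, 718 and 78.5 CPM in elongating spermatids and 965, 941 and 130 CPM in peritubular myoid cells.

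The knockout library thus held 9.37% to 13.6% of the wildtype mean in every class, germ line and soma alike. The mean log2 ratio ran from -3.40 in early spermatocytes to -2.87 in peritubular myoid cells, whereas no other member that reached 20 CPM went beyond -0.72, the value of Rps27 in round spermatids. Of the 31-base words in the 3′ end of Rpl29, 57.7% also occur in other annotated genes and 32.3% in a counted gene, Gm3550. Gm3550 stood at 0.91, 0.38 and 1.54 CPM in late spermatocytes, and how reads matching both genes were counted was not tested. Of 37 genes within 500 kb of Rpl29, 4 of the 11 that reached the level minimum passed the rule in late spermatocytes (4930500F10Rik, Gpr62, Rrp9 and Tex264). The counts were 2 of 15 in round spermatids, 1 of 13 in spermatogonia, 1 of 11 in elongating spermatids and none in the other 2 classes. These counts do not separate neighbours that were higher from those that were lower. Among all genes the rule called 0.334% higher and 0.37% lower in late spermatocytes. It called 0.535% and 0.828% in round spermatids, 0.271% and 0.0948% in spermatogonia, and 0.725% and 0.659% in elongating spermatids. The cause of the low Rpl29 count was not tested, and genotype and library cannot be told apart here.

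After Rpl29, the lowest mean log2 ratio belonged to Rps27, a zinc finger protein of the small subunit, in early and late spermatocytes and in round spermatids. It belonged to Rpl39 in spermatogonia (-0.60), to Rpl38 in elongating spermatids (-0.48) and to Rpl22l1 in peritubular myoid cells (-0.36). Rps27 stood at 971, 975 and 711 CPM in spermatogonia, 886, 937 and 586 CPM in early spermatocytes and 621, 637 and 381 CPM in round spermatids, with the knockout library below both wildtype libraries each time. Rplp0 was the opposite case. It was above both wildtype libraries in all 6 classes, at 2784, 2586 and 3287 CPM in early spermatocytes and 1948, 1758 and 2466 CPM in peritubular myoid cells. Without Rpl29 the members' mean log2 ratios lay between -0.60 and 0.33 in spermatogonia and between -0.36 and 0.41 in peritubular myoid cells.

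**Figure D5:**
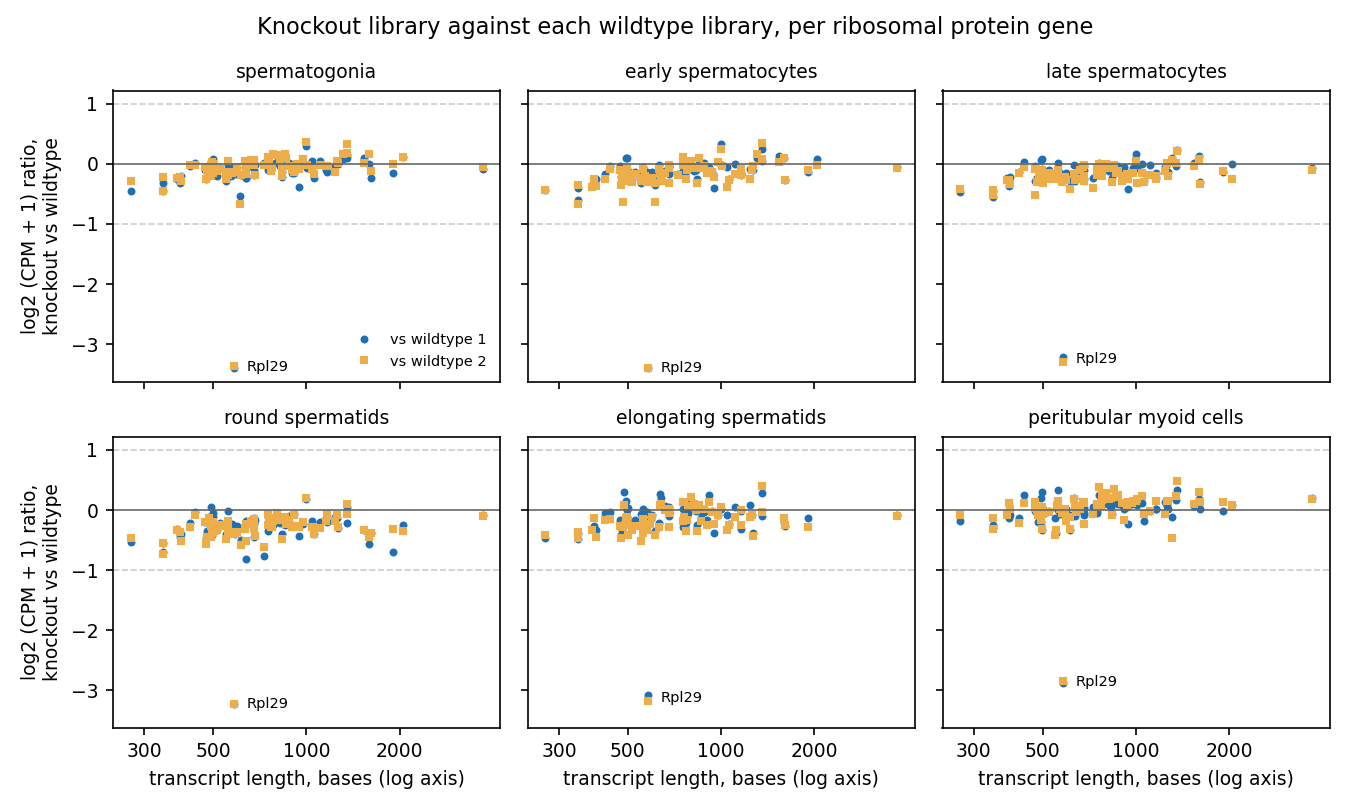
Log2 ratio of CPM + 1 in the knockout library against each wildtype library for each ribosomal protein gene, by length of 1 annotated transcript in bases on a log axis, in 6 classes. Dashed lines mark a 2-fold difference. Rpl29 stood alone between -3.40 and -2.87, and the other members lay between -0.72 and 0.41 as means of both ratios.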

How the data were processed

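Raw UMI counts per gene and barcode were deposited by the authors, who used Cell Ranger 4.0.0, Seurat 4.0.5 and mm10 per the submitters' processing notes. The filters and the use of strand are not given in the sources used here. The members and lists were chosen with earlier results of these data known. Some genes of the family are not reported here.

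Barcodes were kept with at least 1000 UMIs, 500 genes and at most 10% mitochondrial UMIs. Scrublet's automatic threshold marked 0, 1 and 0 barcodes of the 3 libraries, so the top 8% of doublet scores in each library were left out instead. Clusters came from 2000 variable genes without any ribosomal protein gene, 30 principal components, 15 neighbours and Leiden resolution 1 (scanpy 1.11.5, leidenalg 0.10.2). Each germ cell cluster was given the latest stage whose median marker level reached 0.33 of its maximum over clusters, a rule chosen after marker levels were seen. Clusters with a median UMI total under 3 times the lowest deposited total were kept out.

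UMIs were summed per library and class. Stages were compared with edgeR 4.0.16 (quasi-likelihood, TMM, library block, threshold 0.05) and knockout against wildtype by size alone, on log2 of CPM + 1. In simulated data for late against early spermatocytes (18034 genes) 74% of 2-fold and 91% of 4-fold changes were recovered. There, 100 genes per fold were changed, and classes and libraries otherwise differed only in their UMI totals. In the real contrast 27.1% of genes were called higher and 46.8% lower. The simulation did not include such a shift, so its rates do not measure recovery in the real contrast. Alternatives were UMI totals, DESeq2 1.42.0, other filters, denominators, class names and left-out libraries. Genes named are the copies and their parents, X-linked members, those among the 5 leading members of spermatogonia that are reported here, the 6 farthest above and below the median member across the ends, those past the size rule, those leaving the common course, and Rplp0, Rplp1, Rplp2, Rpsa, Fau and Rps27a; Rps27 in the knockout and Tex10 stand outside that rule. Coordinates are from GENCODE on GRCm38 and starts from RefSeq.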

Additional observations from a re-analysis of the deposited data

Results flagged for a closer look

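The ribosomal protein share of the knockout library minus the wildtype mean was below 0 in the 5 named germ cell classes and above 0 in peritubular myoid cells. It was -0.679 percentage points for spermatogonia, -0.945 and -0.838 for early and late spermatocytes, and -0.854 and -0.401 for round and elongating spermatids, against 0.422 in peritubular myoid cells. The difference between the classes was not tested, since there is 1 knockout library, and the myoid sign turned over when doublets were kept.

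Barcodes outside the classes also carried ribosomal protein UMIs. A cluster with macrophage markers (20, 16 and 61 cells) held 11.7%, 10.2% and 13.6% in wildtype 1, in wildtype 2 and in the knockout. The knockout library was above both wildtypes there. An unnamed cluster led by Dcn, Gsn and Mgp (33, 43 and 49 cells) held 14.1%, 11.04% and 10.97%. The binomial intervals of wildtype 2 (10.88% to 11.20%) and the knockout (10.86% to 11.08%) overlapped in that cluster. The wildtypes lay farther from each other there than the knockout did from wildtype 2, so no direction is given. A cluster of few UMIs per cell with Sertoli markers held 6.34%, 6.46% and 5.60%, with the knockout library below both wildtypes. All barcodes of few UMIs together held 5.08%, 5.42% and 5.03%, close to the share of round spermatids in the wildtype libraries.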

How the results depend on the processing

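The share per class moved by more than the spread of libraries under some denominators and class rules. In spermatogonia it was 16.3% without mitochondrially encoded genes, and without the 50 most abundant genes, members included, it was 6.10%, 7.03% and 5.60% in spermatogonia, early spermatocytes and elongating spermatids, which turned the first step over. Without the 50 most abundant other genes it was 17.6%, 11.1%, 8.88%, 5.42% and 6.74% in the order of stages. Late spermatocytes were at 6.95% with clusters made with ribosomal protein genes and 6.87% with classes named by mean marker z-score. The knockout difference turned to 0.013 points in spermatogonia with members of at least 750 bases, and to -0.87 points in peritubular myoid cells with doublets kept. Leaving out Rpl29 changed no sign. A 1.5-fold size rule called 3 members (Rpl29, Rps27 and Rpl10a) in place of 1.

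The number of members called stayed within 1.5 times at each step under every alternative run. Without the replicate block, in which the library pairs the classes, it was 52, 47, 63 and 75 at the 4 steps and 69 across the ends, against 62, 56, 67, 77 and 72. At the second step the split of 19 higher and 37 lower became 48 and 15 with no filter on low counts, 46 and 14 without wildtype replicate 1 and 50 and 14 without the knockout library; the cause was not tested. No paired analysis of knockout against wildtype was possible because the knockout group has 1 library. Values of single members against the median member moved in 62 of 490 alternatives and reversed in 0. The alternatives for the z-score names, the matched cells, the length limit, the other abundant genes and the set without Rpl29 were chosen after seeing the data. Depth limits the X-linked members after early meiosis, where a library holds 98 UMIs of a gene or fewer.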
